A study of Mus musculus with 15 samples.

Results

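The 45 genes of the DNA replication machinery encode the proteins that mark, license and fire replication origins, copy the DNA at the fork and supply its building blocks. They were listed by name and by no measured value, though the set was chosen with earlier results of these data known. All 45 of 45 were found, each as 1 of the 23244 entries of the expression table. All 45 also passed the filter on low values (at least 1 CPM in at least 3 libraries), which kept 13845 entries for testing. The values are CPM, read counts relative to library size, with the scaling of library sizes that the authors applied.

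The libraries came from mouse embryonic stem cells of the EB5 Rx::GFP+/- line, in which GFP reports the eye field gene Rx. Cells were reaggregated in the SFEBq culture, and at Day 10 the GFP+ epithelium at the rim of the aggregates was cut out with forceps. It was either collected at once (Day 10 Rx::GFP+) or cultured on and collected at Day 12 and Day 15. The Day 12 +Wnt and Day 15 +Wnt tissue received CHIR99201, an inhibitor of GSK3, at 3 µM for 24 h and at 1 µM afterwards, while the Day 12 +Fgf and Day 15 +Fgf tissue received 5 ng/ml human recombinant bFgf with 10% FBS. FBS was listed for the +Fgf medium only, so bFgf and serum cannot be told apart, and CHIR99201 was also part of the medium in which the stem cells of all groups had been kept. Each of the 5 groups held 3 biological replicates of tissue from 1 stem cell line, and p-values therefore measure the spread between replicate samples of that line. Whether the replicates came from separate cultures is not stated.

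Between 12556998 and 16175450 whole reads per library were recovered from the values, and 1 read was worth 0.0620 to 0.0764 CPM. No member fell below 161 reads in any library. The coefficient of variation between the 3 replicates of a group had a median of 4.48% and a maximum of 15.8% over the 225 combinations of member and group. The tissue labels were checked against marker genes. Rax stood at 157 to 174 CPM at Day 10 and 287 to 343 CPM in Day 15 +Fgf, against 5.15 to 5.83 CPM in Day 15 +Wnt. Tyr, the melanin enzyme tyrosinase, reached 542 to 667 CPM in Day 15 +Wnt. In bulk tissue, a smaller share of replicating cells and less RNA per cell cannot be told apart.

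Before a cell copies its DNA, the origin recognition complex (ORC) binds origins, and Cdc6 and Cdt1 load the ring-shaped MCM helicase there, a step known as licensing that geminin (Gmnn) blocks by binding Cdt1. At the start of S phase, kinases recruit Cdc45, the GINS complex and Mcm10, which turn the loaded ring into an active helicase. Polymerase alpha with primase then lays primers, the clamp loader RFC places the sliding clamp Pcna, and polymerases epsilon and delta extend the leading and lagging strands, with RPA covering single-stranded DNA, Fen1 and Lig1 joining Okazaki fragments, and ribonucleotide reductase, Tyms and Tk1 feeding the nucleotide pools. Many of these genes are transcribed in late G1 and S phase under E2F factors, which bind short GC-rich elements near the start site. In the developing eye, retinal progenitors keep dividing while the pigment epithelium leaves the cell cycle early.

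The promoters are shown because shared E2F elements are the best known sequence feature of this gene set. RefSeq promoter windows (GRCm38.p6, the assembly also called mm10), from 250 bases before to 50 bases after a start site, were found for 37 of the 45 members by symbol. Gmnn, Gins1, Gins2, Gins4, Mcm4, Pole, Prim2 and Rfc2 were not matched. The E2F element was searched on both strands as TTTCCCGC, TTTCGCGC, TTTGCCGC or TTTGGCGC, and overlapping matches were counted separately. A match lay in the windows of 15 of these 37 genes (40.5%), against 704 of the 27025 genes with a window (2.60%) and 475 of the 10199 of them that were tested here (4.66%). In 9 members a match ended upstream of the start site, and the stretch around it is printed below, 5′ to 3′ on the strand of the gene, with the matches in capitals.
Mcm5: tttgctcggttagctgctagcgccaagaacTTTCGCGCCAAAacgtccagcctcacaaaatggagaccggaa
Mcm6: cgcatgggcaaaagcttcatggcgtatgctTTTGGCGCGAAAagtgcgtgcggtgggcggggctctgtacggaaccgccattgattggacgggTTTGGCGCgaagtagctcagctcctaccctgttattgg
Mcm7: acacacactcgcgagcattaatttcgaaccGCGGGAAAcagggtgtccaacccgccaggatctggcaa
Orc1: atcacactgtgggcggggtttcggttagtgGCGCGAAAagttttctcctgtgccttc
Cdc6: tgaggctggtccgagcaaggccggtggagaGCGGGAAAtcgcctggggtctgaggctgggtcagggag
Gins3: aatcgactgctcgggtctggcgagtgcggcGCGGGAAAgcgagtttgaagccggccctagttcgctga
Pola1: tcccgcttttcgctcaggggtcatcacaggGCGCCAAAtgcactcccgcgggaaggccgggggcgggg
Orc3: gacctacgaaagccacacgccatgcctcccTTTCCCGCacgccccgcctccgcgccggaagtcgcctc
Rfc3: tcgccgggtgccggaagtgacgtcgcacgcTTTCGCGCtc
These stretches lie at chr8:75109326-75109397 (plus strand, Mcm5), chr1:128359715-128359845 (minus, Mcm6), chr5:138172011-138172078 (minus, Mcm7), chr4:108579397-108579453 (plus, Orc1), chr11:98907983-98908050 (plus, Cdc6), chr8:95633488-95633555 (plus, Gins3), chrX:93632256-93632323 (minus, Pola1), chr4:34614946-34615013 (minus, Orc3) and chr5:151651209-151651248 (minus, Rfc3). Mcm6 held 3 matches, of which 1 pair overlapped, and the matches of Mcm5 formed 1 overlapping pair.

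A match is a description of letters and not a binding site. The other 6 members with a match, in which it lay beyond the start site, were Mcm3, Lig1, Pold1, Pold3, Cdt1 and Pole2. CCAAT, searched on both strands, was found in 23 of the 37 members (62.2%), in 41.1% of all genes with a window and in 43.4% of those tested here, and TTTGAA, the core of the CHR element of G2 and M phase genes, in 5 of the 37 (13.5%), in 20.2% of all and in 13.6% of those tested here. As a description with no test, the 15 members with an E2F match and the 22 without one had median log2 differences of -0.09 and -0.04 in Day 12 +Fgf and of -0.38 and -0.19 in Day 12 +Wnt, both against Day 10. From Day 12 to Day 15 the medians were -0.45 and -0.43 in +Fgf and -1.06 and -1.03 in +Wnt, and between Day 10 and Day 15 +Wnt they were -1.44 and -1.23. With matching E2F letters in its promoter, Orc3 was the member with the smallest fall from Day 12 to Day 15 +Wnt.

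The summed level of the set fell with time in culture, and most in the +Wnt tissue, though single members differed. The summed level of the 45 genes was 6797 ± 209 CPM at Day 10 (mean ± SD, n = 3 here and below), 6406 ± 242 CPM in Day 12 +Fgf, 5334 ± 93.04 CPM in Day 12 +Wnt, and at Day 15 it was 2574 ± 104 CPM with +Wnt against 4709 ± 66.05 CPM with +Fgf. The ranges of the Day 10 and Day 12 +Fgf libraries did not overlap but lay close (6642 to 7035 against 6133 to 6598 CPM), and the other groups were apart from these and from each other. The MCM helicase genes alone summed to 2289 CPM at Day 10 and 1830 CPM in Day 12 +Fgf. Their drop exceeded that of the whole sum, so the other members together did not fall in this step. All 45 members had their lowest group mean in Day 15 +Wnt. The highest mean was at Day 10 for 25 members, in Day 12 +Fgf for 18 and in Day 15 +Fgf for 2, Orc3 and Pold2. As a percentage of its own Day 10 mean, the median member stood at 94.7% in Day 12 +Fgf, 80.6% in Day 12 +Wnt, 72.5% in Day 15 +Fgf and 40.3% in Day 15 +Wnt. 35 members were under 50% in Day 15 +Wnt and 3 in Day 15 +Fgf, with a range of 21.5% to 95.0% in the former and 47.0% to 140% in the latter.

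**Figure D1:**
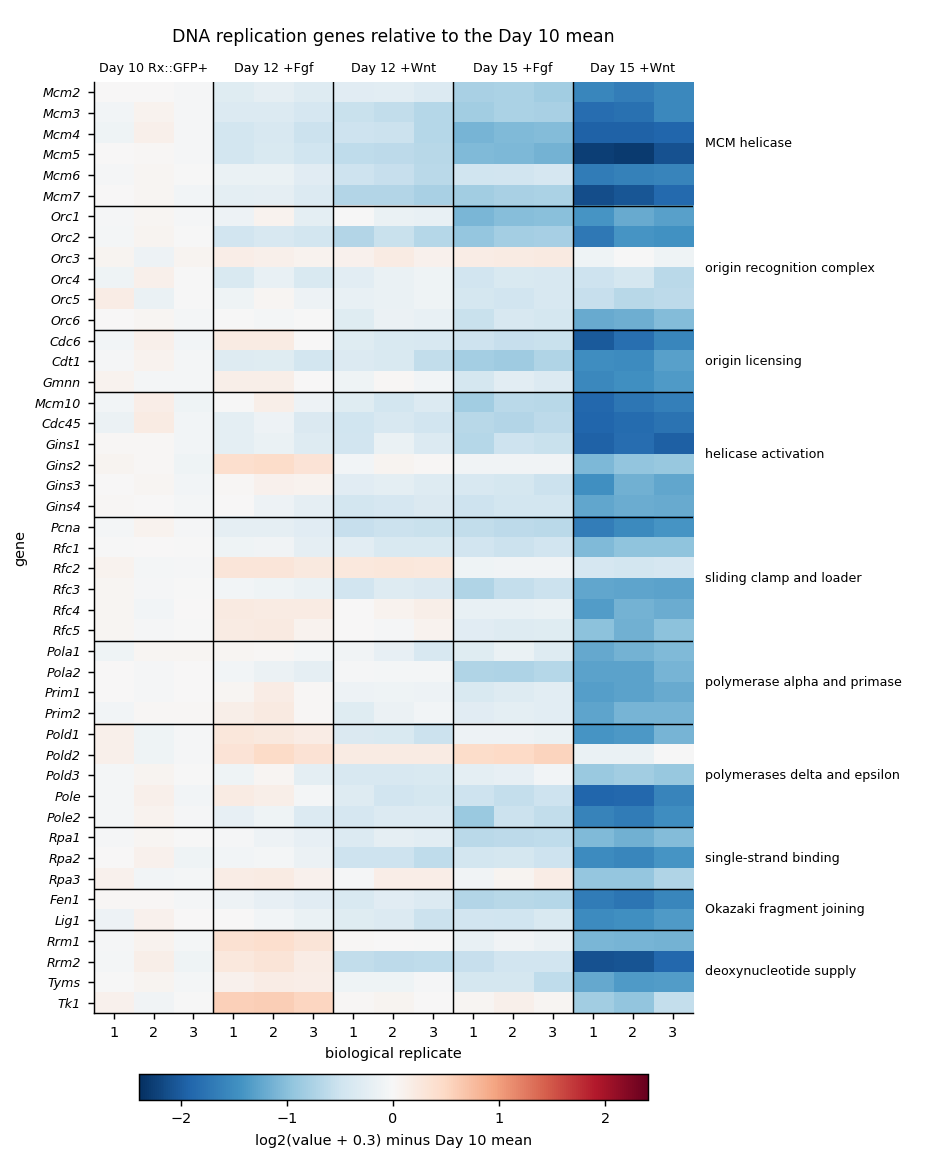
Colours give log2(value + 0.3) of each of the 45 genes (rows, by role) in each of the 15 libraries (columns, 3 replicates per group) minus the gene's Day 10 mean, blue for lower and red for higher. The 3 Day 15 +Wnt columns are the bluest in nearly every row, the MCM rows are blue in every group after Day 10, and Orc3 and Pold2 stay near white or red.

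The first question of the design was how tissue differed from Day 10 after 2 days of culture with each stimulation. No library came from tissue cultured without a stimulation. Against Day 10, the effect of stimulation therefore cannot be told apart from time in culture, excision or the change of medium. Tests were made with limma on log2(value + 0.3), two-sided, with Benjamini-Hochberg adjustment over all 13845 entries and a threshold of 0.05, and a gene is said to rise or fall only where it passed. In Day 12 +Fgf against Day 10, 10 of 45 members rose and 16 fell, while 27.9% of all tested genes rose and 27.8% fell. The share of members that rose was thus near the background, and the share that fell was not far above it. The median difference of the members was -0.08 on the log2 scale (all genes: 0.00), and the change split by role, as all 6 MCM genes fell and all 4 nucleotide supply genes rose. In Day 12 +Wnt against Day 10, 3 of 45 rose, Orc3 (0.14), Pold2 (0.20) and Rfc2 (0.26), and 30 fell, against 30.6% and 29.6% of all tested genes, with a member median of -0.31. Of the 3, only Rfc2 passed without Day 10 replicate 2 (limma adjusted p = 0.151 for Orc3 and 0.0502 for Pold2) or with RIN, the RNA integrity number that the study lists for each sample, as a covariate (adjusted p = 0.071 and 0.0944). Orc3 also did not pass without Day 12 +Wnt replicate 2 (adjusted p = 0.117) or when only the groups compared were fitted (adjusted p = 0.0721). With RIN in the model 6 members rose in Day 12 +Fgf in place of 10, and 2840 of all tested genes in place of 3862. RIN was lower in every Day 10 sample than in every Day 12 sample of either medium, so RNA quality cannot be told apart from these differences. With RIN as a covariate, 20 of the 26 members called in Day 12 +Fgf kept their call and direction. In Day 12 +Wnt 29 of the 33 did so. Both comparisons share the Day 10 libraries.

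The second question was what changed between Day 12 and Day 15. In +Fgf, 0 members rose and 40 fell, against 27.2% and 29.9% of all tested genes, with a median of -0.44. The 5 members that did not pass were Orc3 (0.08), Orc4 (-0.10), Pold2 (0.11), Pold3 (-0.07) and Rpa3 (-0.10). In 40 members the 3 Day 15 +Fgf libraries lay below all 3 Day 12 +Fgf libraries, which held for 33.3% of all tested genes. With RIN as a covariate, 19 members fell in place of 40, with a median of -0.33. Calls over all tested genes also dropped in this setting, to 3591 in both directions together, from 3759 higher and 4140 lower. RIN was lower in every Day 15 +Fgf sample than in every Day 12 +Fgf sample. In this comparison RNA quality and day therefore cannot be told apart. In +Wnt, all 45 members fell and 0 rose, against 35.5% and 32.5% of all tested genes. Their differences ran from -1.60 (Gins1) to -0.21 (Orc3) with a median of -1.06, and 26 fell by at least 1 on the log2 scale, as 3.39% of all tested genes did. In all 45 the Day 15 +Wnt libraries lay below the Day 12 +Wnt libraries, against 37.8% of all tested genes, and the RIN covariate left all 45 called.

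The third question was how the media differed at matched days. At Day 12, 30 members were higher in +Fgf and 0 were lower, against 26.3% and 25.2% of all tested genes, with a median difference of 0.21. At Day 15, 44 members were higher in +Fgf and 0 were lower, against 38.0% and 30.6%, with a median of 0.89 and a range from 0.12 (Orc4, which did not pass) to 1.52 (Rrm2). The libraries of the media did not overlap in 44 members at Day 15, against 40.4% of all tested genes in that direction. RIN was lower in every Day 15 +Fgf sample than in every Day 15 +Wnt sample. At Day 15 RNA quality and medium therefore cannot be told apart. With RIN as a covariate, 43 of the 44 members kept their call and direction.

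Measured against the starting tissue, Day 15 +Fgf had 2 members higher (Orc3 and Pold2) and 38 lower, where 36.2% and 36.4% of all tested genes were, and the median was -0.46. The 3 members that fell by at least 1 there were Mcm4 (-1.07), Mcm5 (-1.09) and Orc1 (-1.04), and 6.83% of all tested genes fell as far. Day 15 +Wnt had 0 members higher and 43 lower than Day 10, where 39.6% and 40.2% of all tested genes were, with a median of -1.31. There 35 members fell by at least 1, against 8.80% of all tested genes, and the 2 that did not pass were Orc3 (-0.07) and Pold2 (-0.11). Without Day 10 replicate 2 both passed, at -0.13 and -0.15 (limma, adjusted p = 0.014 and 0.0367), as Pold2 did without Day 15 +Wnt replicate 3 (-0.16). These comparisons share the Day 10 libraries as well. RIN was lower in every Day 10 sample than in every Day 15 +Wnt sample, so RNA quality cannot be told apart from that difference. With RIN as a covariate, all 43 members called in Day 15 +Wnt kept their call and direction, and 37 of the 40 called in Day 15 +Fgf.

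The MCM helicase genes, which encode the 6 subunits of the ring that unwinds DNA at the fork, fell in all 4 steps from Day 10 to Day 12 and from Day 12 to Day 15, 6 of 6 each time. Of all tested genes, 27.8% (+Fgf) and 29.6% (+Wnt) fell in the first step, and 29.9% and 35.5% in the second. Mcm5, the member of the group with the largest test statistic over all groups, read 360.2, 367 and 350.5 CPM in the Day 10 libraries, 264, 277 and 256 and then 173, 169 and 164 in +Fgf at Day 12 and Day 15, and 234, 234 and 227 and then 74.6, 72.6 and 84.4 in +Wnt. The 5 groups of Mcm5 libraries did not overlap, and each step down was larger than the spread between replicates. From Day 12 to Day 15 Mcm5 fell 3.000-fold in +Wnt (log2 difference -1.58, SE 0.05, adjusted p = 6.82e-13) and 1.57-fold in +Fgf (log2 difference -0.65, SE 0.05, adjusted p = 1.69e-08). Mcm3, with the smallest statistic of the 6, read 333, 367 and 342 CPM at Day 10, 276, 276 and 263 (+Fgf) and 240.2, 231 and 216 (+Wnt) at Day 12, and 194, 204 and 202 (+Fgf) and 98.1, 100.0 and 118 (+Wnt) at Day 15. It was also lowest in Day 15 +Wnt, where it stood 3.30-fold below Day 10.

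Mcm2 read 394, 395 and 381 CPM at Day 10, 318, 337 and 313 in Day 12 +Fgf, 321, 329 and 310.2 in Day 12 +Wnt, 226, 229 and 217 in Day 15 +Fgf and 132, 124 and 134 in Day 15 +Wnt. The Day 12 libraries of both media overlapped for Mcm2 and parted by Day 15, when +Fgf was 1.73-fold higher. Mcm6 read 336, 352 and 339 CPM in the Day 10 libraries, 307, 307 and 282 and then 246, 248 and 257 in +Fgf at Day 12 and Day 15, and 243, 233 and 219 and then 107, 110.4 and 114 in +Wnt. It fell least of the 6 in +Fgf, by 0.45 on the log2 scale from Day 10 to Day 15 (adjusted p = 1.50e-07), and was 2.26-fold higher in Day 15 +Fgf than in Day 15 +Wnt. Mcm4 and Mcm7 also had their highest mean at Day 10 and their lowest in Day 15 +Wnt, with log2 differences of -1.93 and -2.02 between Day 10 and Day 15 +Wnt. The 6 genes together summed to 2234 to 2383 CPM at Day 10 and to 617 to 680.3 in Day 15 +Wnt.

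The origin recognition complex, which marks origins through much of the cell cycle, held the members that changed least. Orc3 read 121, 106 and 120.5 CPM at Day 10, 129, 125 and 123 (+Fgf) and 125, 133 and 125 (+Wnt) at Day 12, and 132, 132 and 135 (+Fgf) and 108, 115 and 107 (+Wnt) at Day 15. Its Day 10 and Day 15 +Wnt libraries overlapped, and it rose in Day 15 +Fgf against Day 10 by 0.20 (SE 0.05, adjusted p = 0.00187). Its small fall from Day 12 to Day 15 +Wnt did not pass with quantile normalization (-0.083, limma adjusted p = 0.18), where Day 15 +Fgf against Day 12 +Fgf did (0.13, adjusted p = 0.0449). Orc2, with the largest test statistic of the complex, read 127, 137 and 130.4 CPM at Day 10, 95.6, 101 and 96.8 in Day 12 +Fgf, 80.2, 90.8 and 81.9 in Day 12 +Wnt, 69.2, 74.4 and 75.5 in Day 15 +Fgf and 39.8, 48.7 and 47.98 in Day 15 +Wnt. It fell in all 4 steps, and in Day 15 +Wnt was 2.88-fold below Day 10.

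Orc1, the subunit that is known to be made and removed with the cell cycle, read 30.7, 32.1 and 30.7 CPM in the Day 10 libraries, 28.6, 33.1 and 26.4 and then 14.4, 15.2 and 15.5 in +Fgf at Day 12 and Day 15, and 31.01, 27.8 and 27.5 and then 11.5, 13.3 and 12.5 in +Wnt. Its Day 12 libraries overlapped those of Day 10 in both media (-0.09 and -0.12, adjusted p = 0.389 and 0.265), and it then fell in both, by 1.93-fold in +Fgf and 2.29-fold in +Wnt. The difference between these 2 falls was 0.25 (SE 0.12, adjusted p = 0.107), so Orc1 was 1 of the 2 members whose fall was not shown to differ between the media. It passed without Day 12 +Fgf replicate 2 (0.34, limma adjusted p = 0.0293) and with quantile normalization (0.43, adjusted p = 0.0117). The other, Orc5, had a difference of 0.11 (SE 0.10, adjusted p = 0.428). Orc4 and Orc5 changed by -0.35 and -0.47 from Day 12 to Day 15 +Wnt, which were among the 4 smallest falls of the 45, and Orc6 by -0.93.

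Among the 3 licensing genes, Cdt1 fell in all 4 steps while Cdc6 and Gmnn did not pass the test in Day 12 +Fgf against Day 10. Cdc6, the ATPase that helps load the helicase, read 55.5, 63.3 and 54.9 CPM at Day 10, 66.1, 66.00 and 58.1 (+Fgf) and 47.2, 44.8 and 44.3 (+Wnt) at Day 12, and 41.00, 39.3 and 39.6 (+Fgf) and 14.1, 16.3 and 19.4 (+Wnt) at Day 15. Its Day 12 +Fgf and +Wnt libraries did not overlap (difference 0.48, adjusted p = 3.56e-04), and from Day 12 to Day 15 it fell 2.73-fold in +Wnt. Cdt1 read 93.8, 101 and 92.3 CPM at Day 10, 77.4, 78.4 and 70.4 in Day 12 +Fgf, 75.7, 73.8 and 62.96 in Day 12 +Wnt, 54.2, 52.9 and 57.7 in Day 15 +Fgf and 33.6, 33.3 and 38.7 in Day 15 +Wnt. Cdt1 was lowest in Day 15 +Wnt, 2.70-fold below Day 10.

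Gmnn, the inhibitor of Cdt1, read 94.4, 86.04 and 85.5 CPM in the Day 10 libraries, 98.2, 97.8 and 88.99 and then 65.8, 74.5 and 70.6 in +Fgf at Day 12 and Day 15, and 82.1, 89.7 and 84.4 and then 29.96, 31.6 and 34.2 in +Wnt. The Day 10 and Day 12 libraries of all 3 groups overlapped, and Gmnn then fell 2.66-fold in +Wnt against 1.35-fold in +Fgf. The fall in +Fgf did not pass with RIN as a covariate (-0.34, limma adjusted p = 0.0729). The difference of these changes was 0.98 (SE 0.09, adjusted p = 2.77e-07), the second largest of the 45. The inhibitor thus moved in the same direction as the loading factors at Day 15 in both media.

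The genes that activate the helicase fell 6 of 6 from Day 12 to Day 15 in both media. Of all tested genes, 29.9% fell in +Fgf and 35.5% in +Wnt. With RIN as a covariate, 19 of all members fell in +Fgf in place of 40. Gins1, a GINS subunit, read 56.1, 56.2 and 52.4 CPM at Day 10, 46.5, 49.3 and 44.4 (+Fgf) and 40.01, 48.9 and 43.9 (+Wnt) at Day 12, and 33.8, 38.7 and 37.8 (+Fgf) and 14.02, 15.2 and 13.96 (+Wnt) at Day 15. Gins1 had the largest fall of all 45 members in +Wnt (log2 difference -1.60, SE 0.08, adjusted p = 3.84e-11) and the largest difference between the media in that change (log2 difference 1.25, SE 0.11, adjusted p = 1.30e-07). Cdc45, which sits between MCM and GINS in the active helicase, read 78.2, 99.5 and 82.6 CPM at Day 10, 73.7, 79.7 and 67.9 in Day 12 +Fgf, 61.6, 65.8 and 62.7 in Day 12 +Wnt, 54.1, 53.1 and 55.8 in Day 15 +Fgf and 22.8, 23.6 and 25.2 in Day 15 +Wnt. It fell 2.63-fold from Day 12 to Day 15 +Wnt and 1.35-fold in +Fgf, and these changes differed (log2 0.96, adjusted p = 2.66e-06). The +Fgf fall of Cdc45 did not pass with RIN as a covariate (-0.26, limma adjusted p = 0.244).

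Gins2 went against its group in the first step and read 50.5, 49.2 and 44.9 CPM in the Day 10 libraries, 64.1, 65.5 and 60.7 and then 45.1, 45.1 and 45.4 in +Fgf at Day 12 and Day 15, and 46.2, 50.3 and 48.9 and then 22.5, 24.8 and 25.6 in +Wnt. The Day 12 +Fgf libraries were above all others, 1.32-fold over Day 10 (adjusted p = 5.39e-05), and the difference between Day 15 +Fgf and Day 10 did not pass (-0.09, adjusted p = 0.206). Gins3, with the smallest statistic of the 6, read 28.5, 29.3 and 26.9 CPM at Day 10, 28.9, 30.4 and 29.96 (+Fgf) and 23.3, 23.9 and 22.8 (+Wnt) at Day 12, and 21.7, 21.02 and 19.7 (+Fgf) and 9.99, 12.5 and 11.7 (+Wnt) at Day 15. Its Day 10 and Day 12 +Fgf libraries lay close together, and it was lowest in Day 15 +Wnt. Mcm10 and Gins4 changed by -1.40 and -0.82 in the last +Wnt step.

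Pcna, the sliding clamp that tethers the polymerases, read 519, 566 and 529 CPM at Day 10, 463, 462 and 443 in Day 12 +Fgf, 367, 374 and 372 in Day 12 +Wnt, 357, 348 and 344 in Day 15 +Fgf and 169, 187 and 201 in Day 15 +Wnt. Each group of Pcna libraries lay apart from Day 10, and Day 12 +Wnt and Day 15 +Fgf, which come from different media, stood near each other. Pcna fell 2.001-fold from Day 12 to Day 15 +Wnt (log2 difference -1.001, SE 0.05, adjusted p = 7.86e-11). The clamp loader genes split at Day 12 +Fgf, where Rfc2, Rfc4 and Rfc5 rose and Pcna and Rfc1 fell against Day 10. Rfc2 read 101, 92.1 and 94.1 CPM in the Day 10 libraries, 117, 117 and 112 and then 89.2, 90.5 and 90.1 in +Fgf at Day 12 and Day 15, and 114, 116 and 113 and then 72.02, 70.7 and 72.7 in +Wnt. It rose in both media at Day 12, by 0.27 in +Fgf and 0.26 in +Wnt, and fell below Day 10 in Day 15 +Wnt (1.33-fold, adjusted p = 9.41e-08).

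Rfc1, the large subunit of the loader, read 209, 213 and 211 CPM at Day 10, 196, 200.2 and 182 (+Fgf) and 177, 164 and 163 (+Wnt) at Day 12, and 153, 147 and 153 (+Fgf) and 101, 108 and 108 (+Wnt) at Day 15. It fell at each step and by at most 1.99-fold, between Day 10 and Day 15 +Wnt. Rfc4 and Rfc3 changed by -1.30 and -0.88 in the last +Wnt step, and Rfc5 by -1.06.

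Polymerase alpha and primase, which start each new strand, fell 4 of 4 between Day 12 and Day 15 in both media. Of all tested genes, 29.9% fell in +Fgf and 35.5% in +Wnt. Prim1, the catalytic primase subunit, read 87.6, 85.5 and 86.8 CPM at Day 10, 89.6, 98.1 and 88.03 in Day 12 +Fgf, 79.3, 80.2 and 80.03 in Day 12 +Wnt, 67.3, 70.1 and 72.7 in Day 15 +Fgf and 34.5, 35.2 and 37.2 in Day 15 +Wnt. Pola1, the catalytic polymerase subunit, read 78.5, 87.2 and 87.2 CPM in the Day 10 libraries, 87.1, 86.3 and 81.1 and then 68.5, 75.5 and 67.7 in +Fgf at Day 12 and Day 15, and 79.6, 73.6 and 64.8 and then 35.5, 38.3 and 40.5 in +Wnt. Neither gene passed the test in Day 12 +Fgf against Day 10 (for Prim1 the difference was 0.08, adjusted p = 0.17), and in Day 15 +Wnt they were 2.42-fold and 2.20-fold below Day 10. Pola2 and Prim2 changed by -1.19 and -0.99 from Day 12 to Day 15 +Wnt.

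Among the replicative polymerases, Pole and Pold2 were both lowest in Day 15 +Wnt but differed in how they stood against Day 10. Pole, the catalytic subunit of polymerase epsilon, read 69.2, 77.8 and 68.2 CPM at Day 10, 81.7, 79.4 and 69.1 (+Fgf) and 57.99, 51.99 and 53.4 (+Wnt) at Day 12, and 50.9, 48.2 and 50.5 (+Fgf) and 18.9, 19.2 and 23.7 (+Wnt) at Day 15. It did not pass in Day 12 +Fgf against Day 10 (0.10, adjusted p = 0.361), fell in Day 12 +Wnt, and in Day 15 +Wnt stood 2.41-fold below Day 15 +Fgf. Pold2, an accessory subunit of polymerase delta, read 64.8, 55.4 and 57.7 CPM at Day 10, 74.03, 80.98 and 74.9 in Day 12 +Fgf, 68.3, 68.1 and 67.7 in Day 12 +Wnt, 80.5, 82.6 and 85.3 in Day 15 +Fgf and 53.2, 52.8 and 58.99 in Day 15 +Wnt. Its highest mean was that of Day 15 +Fgf, whose libraries overlapped those of Day 12 +Fgf and were 1.40-fold over Day 10 (adjusted p = 2.14e-06), and the Day 10 and Day 15 +Wnt libraries overlapped. Pold1, the catalytic subunit of the same enzyme, rose in Day 12 +Fgf (0.23) and fell in Day 12 +Wnt (-0.41) against Day 10, and Pold3 and Pole2 changed by -0.50 and -1.24 in the last +Wnt step. The rise of Pold1 did not pass without Day 10 replicate 2 (0.18, limma adjusted p = 0.0699), without Day 12 +Fgf replicate 1 (0.21, adjusted p = 0.0559) or with RIN as a covariate (0.16, adjusted p = 0.257).

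RPA, the complex on single-stranded DNA, fell 3 of 3 from Day 12 to Day 15 +Wnt, as 35.5% of all tested genes did. Rpa2 read 118, 126 and 110.1 CPM in the Day 10 libraries, 112, 115 and 107 and then 86.3, 87.4 and 83.7 in +Fgf at Day 12 and Day 15, and 83.2, 83.3 and 76.99 and then 41.01, 39.4 and 43.98 in +Wnt. Its Day 12 +Fgf libraries overlapped those of Day 10, while Day 12 +Wnt was 1.45-fold lower than Day 10. Rpa3, the smallest subunit, read 47.01, 41.9 and 42.6 CPM at Day 10, 49.5, 50.3 and 47.02 (+Fgf) and 42.96, 48.8 and 48.8 (+Wnt) at Day 12, and 41.4, 46.02 and 49.4 (+Fgf) and 23.02, 22.97 and 26.5 (+Wnt) at Day 15. It did not pass in either medium at Day 12 or in Day 15 +Fgf against Day 10, and changed by -0.95 (SE 0.08) from Day 12 to Day 15 +Wnt. Rpa1 changed by -0.52 in +Fgf and -0.82 in +Wnt over the same days.

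Fen1, the flap nuclease of lagging-strand synthesis, read 136, 136 and 128 CPM at Day 10, 122, 116 and 110.0 in Day 12 +Fgf, 103, 110.5 and 106 in Day 12 +Wnt, 82.1, 83.7 and 82.3 in Day 15 +Fgf and 41.4, 39.4 and 44.7 in Day 15 +Wnt. Lig1, the ligase that seals the fragments, read 204, 239 and 223 CPM in the Day 10 libraries, 222, 211 and 199 and then 161, 159.6 and 172 in +Fgf at Day 12 and Day 15, and 181, 177 and 156 and then 78.2, 79.3 and 86.8 in +Wnt. Both genes were lowest in Day 15 +Wnt, at 3.17-fold and 2.72-fold below Day 10, with no overlap between those libraries and any others.

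The 4 nucleotide supply genes were the one group that rose as a whole in Day 12 +Fgf against Day 10, where 27.9% of all tested genes rose. Their summed level was 874 to 970.1 CPM at Day 10, 1096 to 1174 in Day 12 +Fgf, 803 to 811 in Day 12 +Wnt, 741 to 781 in Day 15 +Fgf and 348 to 365 in Day 15 +Wnt. Rrm2, the S-phase subunit of ribonucleotide reductase, read 297, 337 and 286 CPM at Day 10, 365, 379 and 346 (+Fgf) and 202, 197 and 202 (+Wnt) at Day 12, and 208, 222 and 222 (+Fgf) and 71.9, 72.2 and 83.2 (+Wnt) at Day 15. It rose in Day 12 +Fgf (0.25) and fell in Day 12 +Wnt (-0.61) against Day 10, and had the widest gap of the 45 between the media at both days, 1.81-fold at Day 12 and 2.87-fold at Day 15 (log2 difference 1.52, SE 0.06, adjusted p = 2.59e-12). With RIN as a covariate its Day 12 +Fgf difference did not pass (0.12, limma adjusted p = 0.275).

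Tk1, a thymidine kinase of the salvage route, read 66.8, 58.2 and 61.2 CPM at Day 10, 92.03, 92.95 and 88.7 in Day 12 +Fgf, 62.8, 64.9 and 62.4 in Day 12 +Wnt, 64.2, 67.5 and 63.7 in Day 15 +Fgf and 34.6, 32.1 and 41.5 in Day 15 +Wnt. It had the largest rise of the 45 in Day 12 +Fgf (1.47-fold, adjusted p = 1.14e-05), and Day 15 +Fgf against Day 10 did not pass (0.07, adjusted p = 0.406). Tyms, which makes thymidylate, read 116, 122 and 113 CPM in the Day 10 libraries, 126, 132 and 131 and then 87.5, 87.8 and 76.96 in +Fgf at Day 12 and Day 15, and 109.6, 109 and 115 and then 50.1, 45.6 and 46.02 in +Wnt. Its rise in Day 12 +Fgf was small (0.15, SE 0.06). It did not pass under edgeR, DESeq2, median-of-ratios scaling or moderation without a trend (adjusted p = 0.0577 to 0.0622) or without Day 10 replicate 1 or 3 or Day 12 +Fgf replicate 2 or 3 (adjusted p = 0.0753 to 0.127). From Day 12 to Day 15 Tyms fell 1.54-fold in +Fgf, against 2.35-fold in +Wnt. Rrm1 rose by 0.36 in Day 12 +Fgf and did not pass in Day 12 +Wnt.

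**Figure D2:**
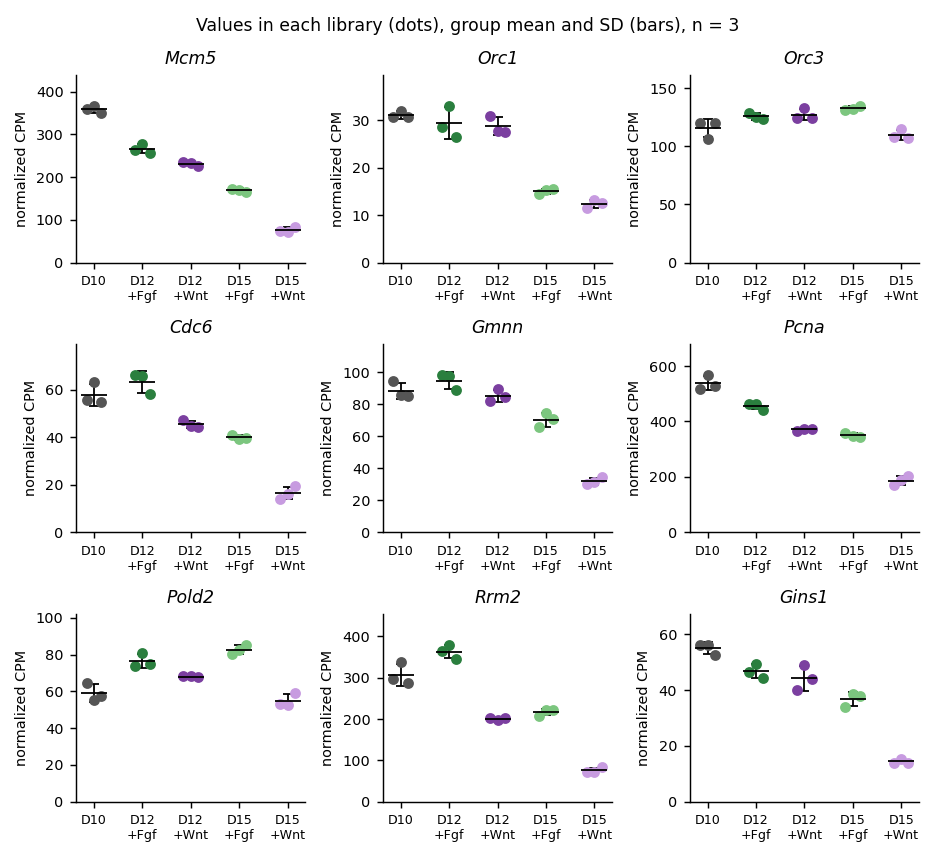
Dots are the normalized CPM of 9 genes in each of the 15 libraries, and bars are the group mean and SD (n = 3), on axes that start at 0. Mcm5 steps down in each group, Orc1 falls in both Day 15 groups, Orc3 and Pold2 stay near or above Day 10, Rrm2 is highest in Day 12 +Fgf, and Gmnn and Gins1 fall far more in Day 15 +Wnt than in Day 15 +Fgf.

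Whether the change from Day 12 to Day 15 differed between the media was tested as an interaction in the same model. It was more negative in +Wnt for 43 of 45 members and in the other direction for 0, against 27.0% and 20.9% of all tested genes. The median difference of the changes was 0.62 (all genes: 0.06), and the range ran from 0.11 (Orc5) to 1.25 (Gins1). With RIN as a covariate 39 of the 43 kept their call and direction. Of the 5 members with the smallest falls in +Wnt, Orc3, Pold2, Orc4 and Pold3 did not pass in +Fgf while Orc5 fell there (-0.36; with RIN as a covariate limma adjusted p = 0.0626), and the other member that did not pass in +Fgf, Rpa3, fell by 0.95 in +Wnt.

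**Figure D3:**
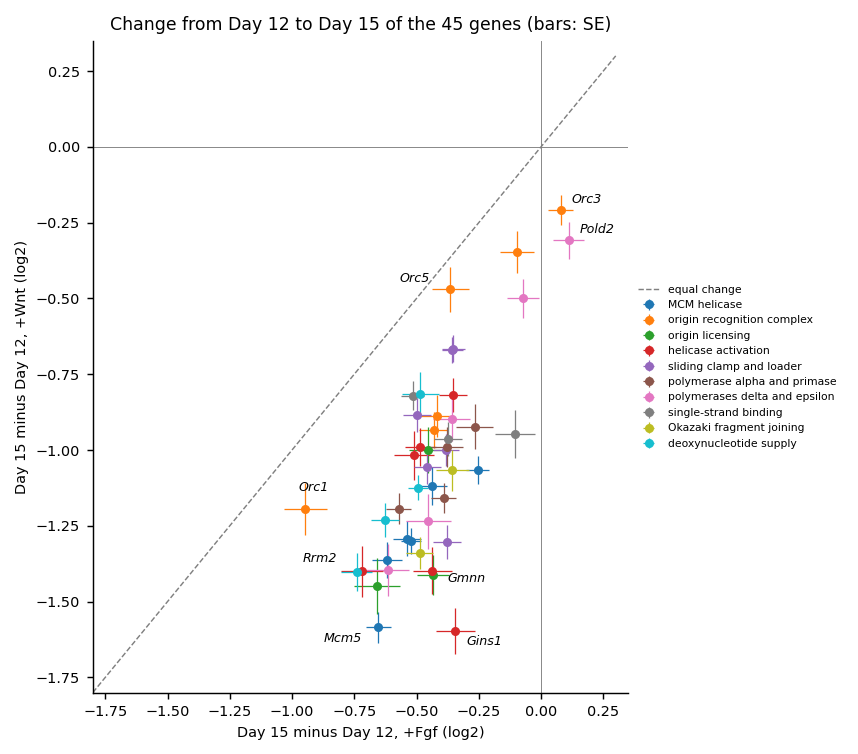
Each point is 1 of the 45 genes, with its log2 change from Day 12 to Day 15 in +Fgf on the horizontal axis and in +Wnt on the vertical axis, bars for the SE and colours for roles. All points lie below the dashed line of equal change, closest for Orc5 and farthest for Gins1, and Orc1 stands apart on the left with the largest fall in +Fgf.

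Other genes around replication were described from 6 lists of 67 genes, all of which were tested. From Day 12 to Day 15, 32.5% of all tested genes rose and 35.5% fell in +Wnt, and 27.2% and 29.9% did so in +Fgf. The 7 kinases and cyclins of origin firing fell 7 of 7 from Day 12 to Day 15 +Wnt (median -0.98) and 4 of 7 in +Fgf. Ccna2, the cyclin of S and G2 phase, read 199.7, 217 and 215 CPM at Day 10, 322, 319.8 and 297 (+Fgf) and 243, 255 and 264 (+Wnt) at Day 12, and 299, 317 and 304 (+Fgf) and 124, 128 and 134 (+Wnt) at Day 15. It rose in Day 12 +Fgf (0.57) and did not pass from there to Day 15 +Fgf (-0.03, adjusted p = 0.628). Ccne1, the cyclin E of the entry into S phase, fell from Day 12 to Day 15 in both media, with log2 differences of -1.01 (+Fgf) and -1.14 (+Wnt), and the difference of these changes did not pass (0.13, adjusted p = 0.399). Cdc25a and Dbf4 changed by -0.70 and -1.35 in +Wnt.

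Of 21 further origin and fork factors, 18 fell and 2 rose from Day 12 to Day 15 +Wnt, and 17 fell and 1 rose in +Fgf. Clspn, the checkpoint mediator claspin, changed by -1.60 in +Wnt, and Timeless, Chtf18 and Wdhd1 by -1.22, -1.38 and -1.12. The 2 that rose in +Wnt were the small polymerase subunits Pold4 (1.07) and Pole4 (0.66), which were named after their values were seen, and Pold4 was also the one that rose in +Fgf (1.15). All 8 genes of chromatin replication fell in both media from Day 12 to Day 15, with Uhrf1 and Chaf1a at -1.36 and -1.29 and Nasp and Asf1b at -1.18 and -1.65 in +Wnt. Among 6 nucleotide enzymes, 4 fell and 1 rose in +Wnt, where Dtymk changed by -0.65 and Samhd1 by -0.59. Rrm2b, the p53-induced subunit that can stand in for Rrm2, was the one that rose, by 0.28 in +Wnt and 0.52 in +Fgf. Its +Wnt rise did not pass without Day 15 +Wnt replicate 2 (0.23, limma adjusted p = 0.0683) or with quantile normalization (0.069, adjusted p = 0.532). With RIN as a covariate neither the +Fgf rise of Rrm2b (0.28, limma adjusted p = 0.29) nor that of Pold4 (0.62, adjusted p = 0.178) passed.

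The 13 E2F, DP and pocket protein genes did not move as one. From Day 12 to Day 15, 2 rose and 11 fell in +Wnt, against 32.5% and 35.5% of all tested genes. In +Fgf 4 rose and 5 fell, near the background of 27.2% and 29.9%. E2f1, an activator of S-phase genes, read 39.04, 46.6 and 41.7 CPM at Day 10, 59.1, 56.4 and 60.5 in Day 12 +Fgf, 32.5, 32.3 and 30.5 in Day 12 +Wnt, 92.2, 92.9 and 87.6 in Day 15 +Fgf and 20.2, 22.2 and 26.6 in Day 15 +Wnt. It rose in +Fgf at both steps while the MCM genes fell, and was 3.94-fold higher in Day 15 +Fgf than in Day 15 +Wnt. Tfdp2, a partner of E2F factors, differed more, 5.33-fold, and Rbl1 stood 2.30-fold higher in +Fgf. E2f5, a repressor of the family, fell in both media, with log2 differences of -0.65 in +Fgf and -0.43 in +Wnt.

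Genes of G2 and M phase did not follow the replication genes in the first step. All 12 rose in Day 12 +Fgf against Day 10 (median 0.48) and 7 of 12 rose in Day 12 +Wnt, with 0 lower in either. Of all tested genes, 27.9% rose and 27.8% fell in the former, and 30.6% and 29.6% in the latter. From Day 12 to Day 15, 12 of 12 fell in +Wnt (median -1.28), and in +Fgf 1 rose and 7 fell. Day 15 +Fgf was still above Day 10 in 8 of the 12 and below it in 2, whereas 38 of the 45 replication genes were below. Of all tested genes, 36.2% were above and 36.4% below in that comparison. Top2a, Ccnb1, Ube2c and Kif11 differed from Day 10 by 0.55, 0.46, 0.76 and 0.26 in Day 12 +Fgf, and by -1.29, -1.37, -1.24 and -1.27 in the last +Wnt step. The Day 12 +Fgf rise of Kif11 did not pass with RIN as a covariate (0.20, limma adjusted p = 0.0586).

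**Figure D4:**
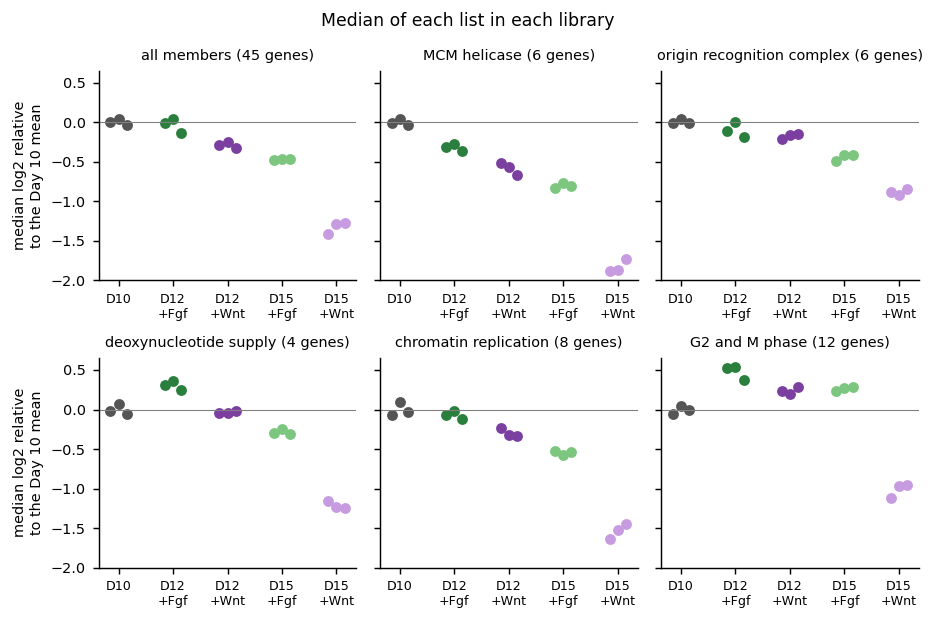
Dots give, for each of the 15 libraries, the median over the genes of a list of log2(value + 0.3) minus the Day 10 mean of each gene. The MCM list is below 0 in all 12 cultured libraries, the nucleotide supply and G2 and M phase lists are above 0 in Day 12 +Fgf, and all 6 lists are lowest in Day 15 +Wnt.

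Markers of other cell types moved with these groups, and their part in the results was not tested. For the counts from Day 12 to Day 15, the shares of all tested genes that rose and fell were 27.2% and 29.9% in +Fgf. In +Wnt these shares were 32.5% and 35.5%. The early neuron list held Atoh7, Pou4f2, Isl1, Elavl3, Elavl4, Dcx, Stmn2, Tubb3, Gap43 and Nefl, and its sum is not a measure of retinal neurons alone. All 10 of these genes rose from Day 12 to Day 15 +Fgf, and 8 rose and 2 fell in +Wnt. Their summed level was 151 to 228 CPM at Day 10, 351 to 383 in Day 12 +Fgf, 652 to 910.4 in Day 12 +Wnt, 2156 to 2362 in Day 15 +Fgf and 1470.3 to 1827 in Day 15 +Wnt. At Day 15 this sum was higher in +Fgf than in +Wnt, as was that of the replication genes. At Day 12 the order was the other way for the neuron markers only, with +Wnt above +Fgf. From Day 12 to Day 15 the neuron sum rose in both media, while the summed level of the replication genes fell. Pigment epithelium markers rose 9 of 10 from Day 12 to Day 15 +Wnt and summed there to 7931 to 10362 CPM, against 311 to 518 in Day 15 +Fgf, 1518 to 2057 at Day 10, 585 to 629.8 in Day 12 +Fgf and 2509.5 to 3069 in Day 12 +Wnt.

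Mesenchyme and fibroblast genes rose 7 of 7 from Day 12 to Day 15 +Wnt, and summed to 490.5 to 605 CPM there, against 47.1 to 70.9 at Day 10, 122 to 246 in Day 12 +Fgf, 72.8 to 104 in Day 12 +Wnt and 100.00 to 128 in Day 15 +Fgf. The 5 photoreceptor precursor markers, of which Rcvrn was near 0 throughout and was not tested, rose 4 of 4 from Day 12 to Day 15 +Fgf and summed to 368 to 427 CPM there and to 95.96 to 124 CPM in Day 12 +Fgf. In the other groups they summed to 194 to 229.5 at Day 10, 264 to 269.6 in Day 12 +Wnt and 238 to 263 in Day 15 +Wnt. The 5 pluripotency genes fell 5 of 5 in Day 12 +Fgf against Day 10, as 27.8% of all tested genes did. They passed in 0 of 5 from Day 12 to Day 15 in either medium. They summed to 45.04 to 57.9 CPM at Day 10, 4.02 to 17.6 in Day 12 +Fgf, 20.7 to 55.7 in Day 12 +Wnt, 1.03 to 14.97 in Day 15 +Fgf and 11.4 to 55.8 in Day 15 +Wnt. Of 5 neural crest genes, the defining markers Sox10 and Foxd3 were at or under 3.04 CPM and 0.495 CPM in every library, at 0 in some, and the list summed to at most 17.8 CPM in any library. The 8 eye field and neural retina genes summed to 3031 to 3279.6 CPM in Day 15 +Fgf and 561 to 617 in Day 15 +Wnt, from 2532 to 2723 at Day 10, with 3577 to 3992 in Day 12 +Fgf and 846 to 909 in Day 12 +Wnt.

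Reads could be shared with neighbours for some members. In the GENCODE annotation of GRCm38, exons of 14 of the 45 genes overlap exons of a gene on the opposite strand and 4 overlap a gene on the same strand. The libraries were made with a stranded kit, but the strand setting of the counting was not given in the sources used here. Of the genes described in full, this concerns Orc1 (Gm12743), Orc2 (Nif3l1), Cdc45 (Ufd1), Gins2 (Gse1), Rfc2 (Lat2), Pole (Gm15792), Fen1 (Tmem258 and Gm10143), Lig1 (Zswim9) and Tk1 (Afmid), and the gene named in parentheses may have given or taken reads. Pcna and Tyms have named pseudogenes, whose reads the counting may also have divided. 26 members, among them Mcm2, Mcm3, Mcm5, Mcm6, Orc3, Cdc6, Cdt1, Gmnn, Gins1, Pold2 and Rrm2, have neither such an overlap nor a named pseudogene.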

How the data were processed

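RNA-Seq of 15 samples of mouse SFEBq tissue was used, 3 per group, assigned from the labels. The authors mapped reads to mm10 with TopHat2 2.0.8b, estimated fragments per gene of the UCSC transcriptome with Cuffdiff and Cufflinks 2.1.1, and normalized with edgeR 3.2.4. The deposited values, called CPM by the authors, are treated as a normalized signal, since columns sum to between 936418 and 1075448. Whole reads were recovered from 100% of values (tolerance 0.05 reads), so edgeR's count test on them was an added alternative.

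limma 3.58.1 (R 4.3.3) fitted log2(value + 0.3) to 5 group means with a trend, and Benjamini-Hochberg adjustment ran over all tested entries within each of 9 comparisons, with the steps tested on simulated data. Alternatives are given at the end, with edgeR 4.0.16 and DESeq2 1.42.0. RIN came from the study's sample list. Replicates differed by more than sampling noise (chi-square per degree of freedom 2.71 to 8.67). Values per library were given for the members with the largest and smallest F of each role, 16 members listed by name, and those called against most of their role, and up to 4 genes with the largest F were named per other list. Some genes under that rule are not reported here. The rule that lists the 45 members uses no measured value, but this set and the other lists were chosen with earlier results of these data known.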

Additional observations from a re-analysis of the deposited data

Results flagged for a closer look

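The change from Day 12 to Day 15 differed between the +Fgf and +Wnt tissue in 43 of the 45 replication genes, by the interaction term of the limma model (adjusted p under 0.05), and was more negative in +Wnt in each of the 43. Among the genes described above, the difference of the changes on the log2 scale was 1.25 for Gins1, 0.98 for Gmnn and 0.96 for Cdc45. The cause was not tested.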

How the results depend on the processing

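The 18 counts of members that rose or fell in the 9 comparisons were recomputed under 12 settings and without each library. They came out within 1.5 times of the reported count in 326 of 336 cases. With RIN as a covariate, 6 members rose in Day 12 +Fgf against Day 10 in place of 10, 1 rose in Day 12 +Wnt against Day 10 in place of 3, 1 was lower in Day 12 +Fgf than in Day 12 +Wnt in place of 0, and 19 fell from Day 12 to Day 15 +Fgf in place of 40. With quantile normalization, 1 member was lower in Day 12 +Fgf than in Day 12 +Wnt, 1 rose from Day 12 to Day 15 +Fgf, and 1 was higher in Day 15 +Wnt than at Day 10, each in place of 0; this setting moved the median of all genes in the last comparison from 0.00 to -0.11. Leaving out 1 library gave 1 to 3 rising members in Day 12 +Wnt against Day 10 (1 without Day 10 replicate 2) and 0 to 1 lower members in Day 12 +Fgf against Day 12 +Wnt (1 without Day 12 +Fgf replicate 1 or 2). The cause of these shifts was not tested.

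The replicate number as a block gave 10 rising and 15 falling members in Day 12 +Fgf against Day 10 and the reported counts elsewhere. No pairing of same-numbered libraries of different groups was detected. Their deviations from the group means correlated at -0.25 to 0.24 (median -0.01, 30 pairs), and 5 of 15 libraries correlated best with their own number. The labels do not say whether the numbers mark shared cultures, and these correlations cannot exclude it. Among members called in the main model, the sign turned in 1 case, Rrm1 in Day 15 +Fgf against Day 10 under quantile normalization. With 3 replicates per group, small differences cannot be told from the spread between replicates, and each member had at least 161 reads in every library. Differences that had not passed the test changed sign as follows. With RIN as a covariate, Ccna2, Pold3 and Rpa3 stood at 0.10, 0.087 and 0.067 from Day 12 to Day 15 +Fgf, and Pole at -0.14 in Day 12 +Fgf against Day 10. With quantile normalization, Ccna2 stood at 0.063 from Day 12 to Day 15 +Fgf and Orc3 at 0.14 in Day 15 +Wnt against Day 10. Without 1 library each, Pold3 ran from -0.14 to 0.0014 from Day 12 to Day 15 +Fgf.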
